A study of Mus musculus with 39 samples.

Results

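The 8 genes described here carry the hormones, receptors and niche signals of the Sertoli cell, and were followed across the testis and gubernaculum of wild-type mice and of mice altered at the gene of insulin-like peptide 3 (INSL3). They were the anti-Müllerian hormone gene Amh, its receptor gene Amhr2, the inhibin and activin subunit genes Inha, Inhba and Inhbb, the follicle-stimulating hormone (FSH) receptor gene Fshr, the KIT ligand gene Kitl and the gene of glial cell line-derived neurotrophic factor, Gdnf. They were taken by symbol, 8 of the 21561 Ensembl genes that the 2 count tables of the study share. Bulk RNA-seq had been run on 39 libraries in 13 groups of 3, of which 8 groups and 24 libraries were testis. All groups were male C57BL/6J mice: wild type (WT), INSL3-KI, homozygous for a minke whale INSL3 cDNA that replaces mouse Insl3 at its own locus, with the neo cassette removed by Cre, and INSL3-KO, labelled as a knockout of Insl3. Testes were taken at postnatal day 8, 23 and 40 (P8, P23, P40) from WT and INSL3-KI, and at P8 and P23 from INSL3-KO. Gubernacula were taken at P8 from the 3 genotypes and at P23 from WT and INSL3-KI. Per the study, in sexually mature mice WT testes lie in the scrotum, INSL3-KI testes stop in the inguinal region and INSL3-KO testes stay near the kidney. Where the positions differ, position and genotype cannot be told apart.

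Sertoli cells line the seminiferous tubule and nurse the germ cells. The immature cell secretes AMH, which makes the Müllerian ducts regress in the male fetus and which falls as the testis enters puberty. INHA pairs with INHBA or INHBB to form inhibin, which restrains FSH secretion from the pituitary, whereas pairs of the beta subunits alone form activin. FSH acts on Sertoli cells through FSHR and cAMP. KITL binds KIT on differentiating spermatogonia, and GDNF acts through GFRA1 and RET to keep spermatogonial stem cells from differentiating. AMHR2 is the ligand-specific receptor for AMH and is carried by Sertoli and Leydig cells of the postnatal testis.

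On GRCm38 the annotation placed Amh (ENSMUSG00000035262) at chr10:80805243-80807648 on the plus strand and Amhr2 (ENSMUSG00000023047) at chr15:102445367-102454633 on the plus strand. Inha (ENSMUSG00000032968) lies at chr1:75507077-75510366 (+), Inhba (ENSMUSG00000041324) at chr13:16011851-16031621 (+) and Inhbb (ENSMUSG00000037035) at chr1:119415465-119422248 (-). Fshr (ENSMUSG00000032937) lies at chr17:88984952-89200675 (-), Kitl (ENSMUSG00000019966) at chr10:100015630-100100416 (+) and Gdnf (ENSMUSG00000022144) at chr15:7810846-7837575 (+). Levels below are given per gene, not per transcript.

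An entry was found for 7 of the 8 genes among the RefSeq promoters of GRCm38.p6. The gene without one was Amh, so its promoter was not searched. Since the genes moved together in several comparisons, the 250 bases before each start were searched on both strands for 3 motifs of factors known in Sertoli cells. These were the NR5A1 core AAGGTCA, the E-box CACGTG and the cAMP response element core TGACGT. The 3 windows that held a match are shown 5′ to 3′ in the direction of the gene, with the match in capitals and positions counted back from the start site.
Amhr2, chr15:102445117-102445366 (+), NR5A1 core at -231: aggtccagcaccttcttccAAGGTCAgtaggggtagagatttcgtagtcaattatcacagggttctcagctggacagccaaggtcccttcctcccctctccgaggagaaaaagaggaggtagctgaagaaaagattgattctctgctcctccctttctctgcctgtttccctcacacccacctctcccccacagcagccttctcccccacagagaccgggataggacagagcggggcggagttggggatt
Fshr, chr17:89200676-89200925 (-), E-box at -61: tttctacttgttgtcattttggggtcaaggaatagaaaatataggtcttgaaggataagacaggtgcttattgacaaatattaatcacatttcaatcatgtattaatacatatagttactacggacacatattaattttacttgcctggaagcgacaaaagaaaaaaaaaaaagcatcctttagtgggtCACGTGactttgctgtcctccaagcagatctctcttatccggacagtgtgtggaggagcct
Gdnf, chr15:7809798-7810047 (+), cAMP response element core, read on the other strand, at -51: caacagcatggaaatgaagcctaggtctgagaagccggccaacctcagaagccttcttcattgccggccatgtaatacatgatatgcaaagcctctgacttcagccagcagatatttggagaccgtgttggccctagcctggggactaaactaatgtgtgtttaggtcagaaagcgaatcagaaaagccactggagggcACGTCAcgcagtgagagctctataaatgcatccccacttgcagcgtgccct
Among all 27025 promoters of the same length, 4.05% held the NR5A1 core, 6.05% the E-box and 6.56% the cAMP response element core. No motif was shared by 2 of the 7 genes searched, which leave out Amh, and a match is a description of the letters only. The RefSeq start used for Gdnf lies 798 bases from the start of the annotated gene, and a window at another RefSeq start of Gdnf, 2881 bases away, held no match. The RefSeq starts of Inha and Kitl lie 532 and 191 bases from the annotated ones.

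The libraries held between 29861447 and 45260372 counted reads, and the testis libraries between 33000204 and 42629270. In testis Insl3 stood at 71.1 to 89.5 CPM (counts scaled to the library total) in WT testis at P8 and at 0.455 to 0.927 in INSL3-KI testis, but libraries labelled INSL3-KO at P8 still held 16.5 to 21.9 CPM, from 613 to 906 reads. This goes against their label, and the source of these reads was not tested, so every direction drawn from these P8 libraries is that of their label only. At P23 INSL3-KO testis held 0, 5 and 0 Insl3 reads against 528 to 647 CPM in WT, and INSL3-KI held 1.22 to 2.31. At P40 it was 538 to 705 CPM in WT and 11.4 to 14.2 in INSL3-KI. Reads were aligned to the mouse genome, so those of the whale cDNA may be missed in these INSL3-KI values. The study reports expression of the whale gene in these mice from RT-PCR and Western blotting. WT gubernaculum held 87, 25 and 29 Insl3 reads at P8 and both mutants none, but at P23 libraries labelled INSL3-KI held 12, 28 and 0 against 27, 9 and 20 in WT (log2 fold -0.74, adjusted p = 0.72). The testis libraries that stood apart from their groups were INSL3-KI P23 replicate 3, INSL3-KI P40 replicate 1, INSL3-KI P8 replicate 2 and WT P8 replicate 3. Their values are given beside the results they touch. All INSL3-KO libraries and WT P23 testis sit in 1 table and the rest in the other, so comparisons that cross tables are marked, and there genotype or age and table cannot be told apart. Inhba was not counted across tables, since its reads and FPKM implied a length of 6616 bases from one table and 1666 bases from the other, which leaves 7 genes. In whole tissue, fewer cells of a type and less RNA per cell cannot be told apart.

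Read in whole tissue, the group fell steeply in WT testis between P8 and P23 and stayed low at P40, with Amhr2 the exception. Set against Sertoli marker reads, Inha and Amhr2 ran differently, as given further on. Amh, a marker of the immature Sertoli cell, was measured at 331, 488 and 386 FPKM (fragments scaled to gene length and library depth) at P8, at 1.52, 1.83 and 1.33 at P23 and at 2.48, 2.19 and 2.48 at P40. The 3 ages did not overlap. From P8 to P40, a comparison within 1 table, Amh fell by 6.69 on the log2 scale (SE 0.20, adjusted p = 6.8e-08), which is 104-fold. Inhba, the activin A subunit, stood at 7.14, 9.33 and 10.1 FPKM at P8 and at 0.0603, 0.0238 and 0.0759 at P40, from 7 to 22 reads, and fell by 6.57 (SE 0.31). Gdnf, the stem cell signal, fell by 3.81 (SE 0.25), from 7.61, 9.52 and 6.82 FPKM to 0.229, 0.407 and 0.402. The drop was smaller for Kitl (log2 fold -2.90), Inhbb (-2.79), Fshr (-2.35) and Inha (-1.88). Thus 7 of the 8 genes were called lower at P40, where called means an adjusted p below 0.01 and a change of at least 2-fold and where 27.8% of all genes tested were lower. Amhr2 did not follow. It stood at 130, 105 and 75.4 FPKM at P8 and at 107, 115 and 110 at P40, groups that overlapped, and its fitted change of 0.81 was under 2-fold (adjusted p = 0.0029).

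The P23 to P8 comparison of WT crosses the tables and gave the same 6 genes as lower among the 7 counted, beside 29.0% of all genes. Its log2 folds were -7.16 for Amh, -4.34 for Gdnf, -3.00 for Inhbb, -2.89 for Fshr, -2.67 for Kitl and -1.82 for Inha. Amhr2 was fitted at 0.79 there, but at -0.03 on the log2(FPKM + 1) scale, so no direction is given. The calls in WT held whichever library was left out, WT P8 replicate 3 included, which carried 15820 CPM of fibroblast markers and 309 of adipocyte markers against 5462 to 8577 and 40.6 to 57.4 in the others. Over the same ages the summed Sertoli markers went from 3210 to 4338 CPM at P8 to 706 to 725 at P23 and 635 to 763 at P40, while the summed spermatid markers went from 1.86 to 2.41 to over 4889 in every library. Their part in the fall was not tested.

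**Figure D1:**
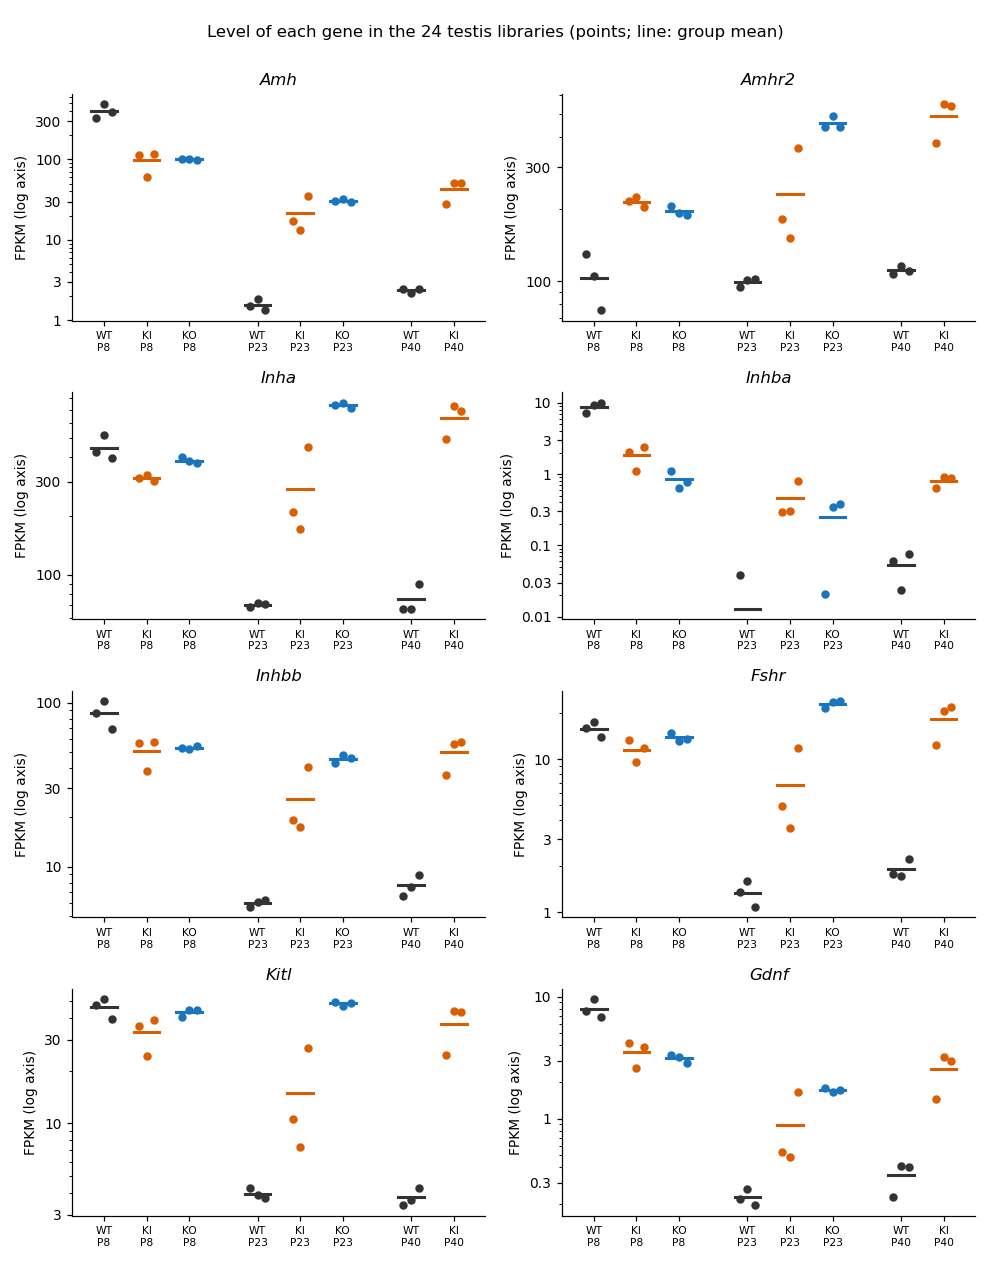
FPKM (log axis) of the 8 genes in the 24 testis libraries, a panel for each gene, with points for libraries, a line at each group mean and groups ordered by age and genotype; the 2 WT P23 libraries in which Inhba is listed at 0 are not drawn. For Amh, WT is the highest group at P8 (331 to 488 FPKM) and the lowest at P23 and P40 (1.33 to 2.48), with the mutants between 13.3 and 51.4 at the later ages.

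At P8, the earliest age taken, INSL3-KI testis had less Amh, Inhba and Gdnf than WT. Amh stood at 115, 60.8 and 117 FPKM against 331, 488 and 386, and was downregulated 4.45-fold (log2 fold -2.15, SE 0.27, adjusted p = 0.0046). Inhba stood at 2.06, 1.11 and 2.42 FPKM against 7.14, 9.33 and 10.1, a 5.06-fold decrease (log2 fold -2.34, SE 0.29, adjusted p = 0.0044). Gdnf stood at 4.16, 2.60 and 3.87 against 7.61, 9.52 and 6.82, a 2.42-fold decrease (log2 fold -1.27, SE 0.21, adjusted p = 0.0078). For none of the 3 did the groups overlap, and INSL3-KI replicate 2 was the lowest library of each. These 3 of 8 compare with 3.25% of all genes called lower. When libraries were scaled by total reads, or with limma on log2(FPKM + 1), Gdnf missed the test (adjusted p = 0.011 and 0.013) and Amhr2 was called higher in its place.

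The other 5 genes missed the test at P8. The log2 folds were -0.86 for Inhbb (adjusted p = 0.017), -0.62 for Kitl (0.038), -0.61 for Inha (0.013) and -0.56 for Fshr (0.028). Amhr2 went the other way, at 216, 225 and 204 FPKM in INSL3-KI and 130, 105 and 75.4 in WT, without overlap (log2 fold 0.96, SE 0.19, adjusted p = 0.011). The P8 calls depended on single libraries. Without WT replicate 1 Amh and Inhba were called, beside 931 of all genes. In INSL3-KI replicate 2 spermatocyte markers summed to 1009 CPM against 414 and 505 in the others. Without that library all 3 were called, beside 897 of all genes. Without WT replicate 2 or 3, or INSL3-KI replicate 1 or 3, none was, with 0, 1, 1 and 14 genes called in all. The fitted Amh change stayed between -2.33 and -1.92, that of Inhba between -2.54 and -2.09 and that of Gdnf between -1.41 and -1.10 through these fits, and the highest adjusted p were 0.034, 0.034 and 0.043.

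The testis libraries labelled INSL3-KO at P8, set against WT across tables, had less Amh and Gdnf. Amh stood at 102, 101 and 98.8 FPKM, a 4.21-fold decrease (log2 fold -2.07, SE 0.14, adjusted p = 4.4e-05), and Gdnf at 3.33, 3.19 and 2.88, a 2.79-fold decrease (log2 fold -1.48, SE 0.14, adjusted p = 0.00016). Thus 2 of the 7 genes counted were lower, beside 8.37% of all genes. Amhr2 stood at 207, 192 and 189 FPKM and was 1.80-fold higher (adjusted p = 0.0041), below the 2-fold limit, though it was called without WT replicate 1. Inhbb (log2 fold -0.76) and Fshr (-0.44) had adjusted p of 0.0021 and 0.0070 at less than 2-fold. Kitl (-0.11, adjusted p = 0.38) and Inha (-0.28, adjusted p = 0.047) overlapped WT.

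Set against each other at P8, across tables, INSL3-KI and the libraries labelled INSL3-KO had none of the 7 genes called, where 3.92% of all genes were. The log2 fold of INSL3-KI over INSL3-KO was -0.10 for Amh (SE 0.21), 0.19 for Gdnf (SE 0.19) and 0.10 for Amhr2 (SE 0.08), and those 3 groups overlapped. It was -0.35 for Inha (adjusted p = 0.010) and -0.53 for Kitl (adjusted p = 0.038), with INSL3-KI the lower group in each. Across all genes 7013 had an unadjusted p below 0.05 in that fit and DESeq2 called 906, none of them among the 7.

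Marker genes of several cell types moved with the mutants at P8. The Sertoli sum was 3207 to 4181 CPM in INSL3-KI, 4518 to 4577 in the libraries labelled INSL3-KO and 3210 to 4338 in WT. Of its 10 genes 1 was lower and 2 were higher in INSL3-KI than in WT, where 511 and 476 of all 15702 genes tested were. The lower gene was Gata4, a transcription factor that acts on the Amh promoter, at 147 to 256 CPM against 587 to 732 in WT. Spermatocyte markers summed to 414 to 1009 CPM in INSL3-KI and 573 to 578 in those labelled INSL3-KO against 39.7 to 87.3 in WT, with 4 of 6 genes higher in INSL3-KI. Leydig markers summed to 263 to 285 CPM in INSL3-KI and 522 to 540 in those labelled INSL3-KO against 636 to 760 in WT, and endothelial markers to 92.1 to 155 and 123 to 126 against 216 to 357. Fibroblast markers summed to 2667 to 4383 CPM in INSL3-KI against 5462 to 15820 in WT. The part of these shifts in the lower Amh, Inhba and Gdnf was not tested.

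At P23 the mutant testes lay above WT. INSL3-KO testis, compared with WT within 1 table, had 7 of the 8 genes higher, where 31.1% of all genes were. Amh stood at 30.2, 32.5 and 29.4 FPKM against 1.52, 1.83 and 1.33, a 12.5-fold increase (log2 fold 3.64, SE 0.11, adjusted p = 4.5e-10). Fshr stood at 21.7, 23.7 and 24.1 FPKM against 1.35, 1.59 and 1.08 (log2 fold 3.45, SE 0.13), and Kitl at 49.4, 47.0 and 48.9 against 4.27, 3.88 and 3.72 (log2 fold 2.99, SE 0.07). For these receptor and ligand genes every INSL3-KO library lay above every WT library.

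The inhibin subunits rose with them at P23. Inha stood at 742, 762 and 711 FPKM against 68.6, 71.5 and 70.9 (log2 fold 2.74, SE 0.05), and Inhbb at 42.7, 47.9 and 45.8 against 5.68, 6.08 and 6.27 (log2 fold 2.27, SE 0.06). Gdnf (log2 fold 2.26, SE 0.20) and Amhr2 (1.56, SE 0.05) were also upregulated, the latter from 94.7, 101 and 102 FPKM to 441, 492 and 441. Inhba was too low to be tested, with 2, 24 and 32 reads in INSL3-KO and 4, 0 and 0 in WT. The 7 calls stood without any 1 library, though in this comparison the estimates of Amhr2, Inhbb and Gdnf turned negative when libraries were scaled on Sertoli markers, as given further on.

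INSL3-KI testis at P23, set against WT across tables, was more variable. Amh stood at 17.2, 13.3 and 34.7 FPKM, 9.33-fold above WT (log2 fold 3.22, SE 0.35, adjusted p = 0.0013), and Inhbb at 19.4, 17.5 and 40.6, 2.89-fold above (log2 fold 1.53, SE 0.28, adjusted p = 0.0061). These 2 of 7 compare with 8.81% of all genes called higher. The other 5 lay above WT without overlap but missed the test, with log2 folds of 1.94 for Fshr (adjusted p = 0.011), 1.40 for Inha (0.012), 1.43 for Gdnf (0.045), 1.27 for Kitl (0.036) and 0.66 for Amhr2 (0.093). Replicate 3 was the highest INSL3-KI library for all 8 genes. It held 3391 CPM of Sertoli markers against 1558 and 1196 in replicates 1 and 2, and 34.8 CPM of spermatid markers against 284 and 391. Without it Amh (log2 fold 2.81), Inhbb (1.15) and Fshr (1.37) were called, beside 4073 of all genes in either direction. Without replicate 1 only Amh was called, beside 778 of all genes. Without replicate 2 Amh, Inha, Inhbb and Fshr were called, beside 3967. With any of the 3 WT libraries left out none was called, beside 372 to 416 of all genes, the adjusted p of Amh reaching 0.013.

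INSL3-KI testis lay below INSL3-KO at P23, across tables, for Inha and Kitl. The log2 fold was -1.30 for Inha (SE 0.30, adjusted p = 0.0078) and -1.68 for Kitl (SE 0.39, adjusted p = 0.0083), 2 of 7 genes beside 13.0% of all genes called lower. Fshr (-1.48, adjusted p = 0.011), Amhr2 (-0.86), Inhbb (-0.70) and Gdnf (-0.79) were not called, and Amh overlapped between the groups (-0.38, adjusted p = 0.27). The count depended on INSL3-KI replicate 3, as did the count over all genes. Without it 6 genes were called lower, Amhr2 (-1.22), Inha (-1.73), Inhbb (-1.07), Fshr (-2.02), Kitl (-2.27) and Gdnf (-1.45). In that fit 8501 of all genes were called in either direction. Without any other library none of the 7 was called, beside 3658 to 4717 of all genes. The Inha and Kitl calls were absent when libraries were scaled by total reads alone, and on the Sertoli scale Inha was fitted at 0.09.

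At P40 all 8 genes were higher in INSL3-KI testis than in WT, within 1 table and beside 25.6% of all genes. On the Sertoli scale given further on, the estimates of Amhr2, Inhbb and Gdnf lay below 0. None of these 3 was called there (adjusted p = 0.032, 0.23 and 0.79). Amh stood at 27.9, 51.4 and 50.3 FPKM against 2.48, 2.19 and 2.48, an 11.7-fold increase (log2 fold 3.55, SE 0.25, adjusted p = 0.00019). Inhba stood at 0.629, 0.901 and 0.880 FPKM against 0.0603, 0.0238 and 0.0759, a 9.30-fold increase (log2 fold 3.22, SE 0.38) at levels far below those of P8. On the log2(FPKM + 1) scale with limma the Inhba difference was 0.77, under 2-fold, and it was not called. Inha, shared by both inhibins, stood at 495, 729 and 686 FPKM against 67.0, 67.0 and 90.1, a 5.56-fold increase (log2 fold 2.47, SE 0.22). The lowest INSL3-KI library was replicate 1 for each of these genes, and no library of either group crossed into the other.

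Among the receptor and niche genes at P40, Kitl stood at 24.6, 43.6 and 43.1 FPKM against 3.40, 3.64 and 4.27, a 6.31-fold increase (log2 fold 2.66, SE 0.23). Fshr stood at 12.3, 20.7 and 21.9 against 1.78, 1.73 and 2.23, a 6.18-fold increase (log2 fold 2.63, SE 0.23). Gdnf rose 4.68-fold (log2 fold 2.23, SE 0.36), Inhbb 4.22-fold (2.08, SE 0.20) and Amhr2 2.87-fold (1.52, SE 0.19), the last to 378, 551 and 541 FPKM. The 8 calls stood without any 1 library. INSL3-KI replicate 1, with 3218 CPM of Sertoli markers against 5009 and 5060 in the others and 624 CPM of spermatocyte markers against 171 and 235, lowered the estimates: without it Amh was at 3.76 and Gdnf at 2.48.

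**Figure D2:**
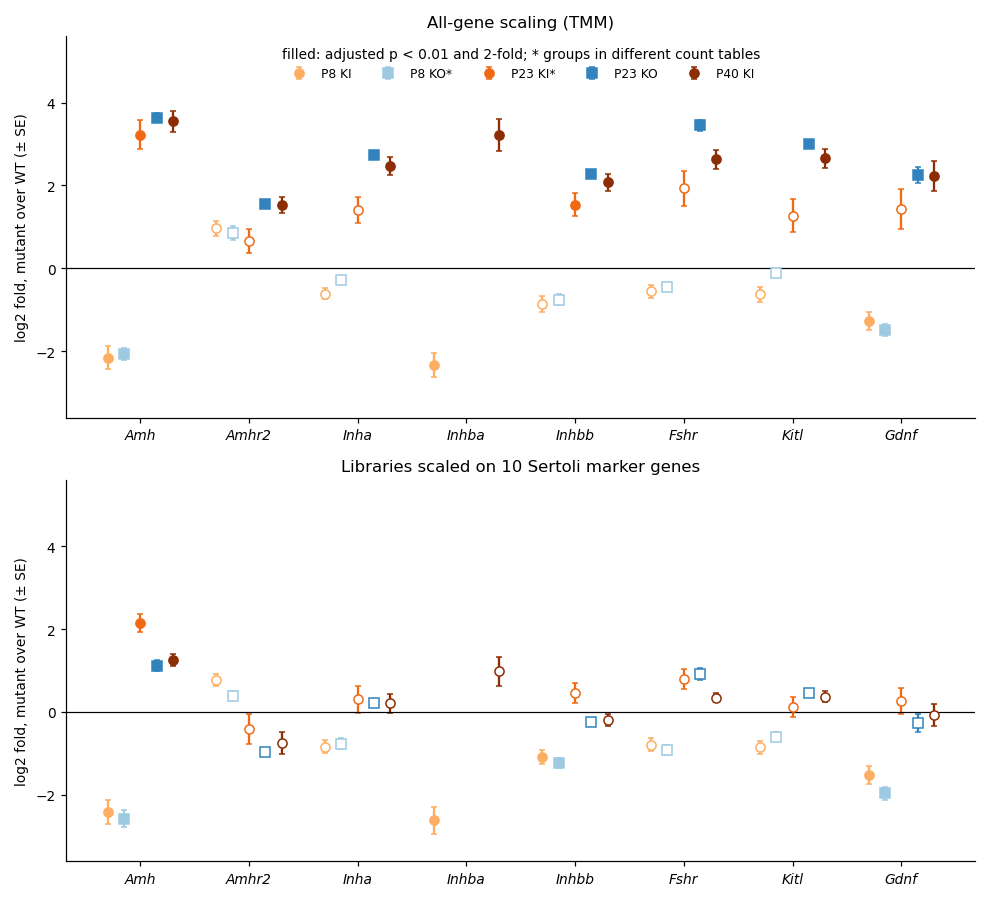
Log2 fold change of mutant over WT testis (± SE) for each gene, with TMM scaling in the upper panel and with scaling on 10 Sertoli marker genes in the lower; filled symbols passed the test, and asterisks mark comparisons across tables. At P40 the upper panel has all 8 genes between 1.52 and 3.55, and the lower panel has only Amh called, at 1.25, with Amhr2, Inhbb and Gdnf below 0.

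The difference between the INSL3-KI effects at P40 and P8 was itself tested in 1 fit over the 4 groups. It was called for 7 of the 8 genes, where 23.2% of all genes had a higher effect at P40. For Amh the effect moved by 5.62 on the log2 scale (SE 0.42, adjusted p = 6.6e-06) and for Inhba by 5.48 (SE 0.50). For Gdnf, Kitl, Fshr, Inha and Inhbb it moved by 2.86 to 3.43. Amhr2, which stood above WT at both ages, had a difference of 0.48 (SE 0.26, adjusted p = 0.13). These 7 calls held without each of the 12 libraries in turn.

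The markers of other cells in the older mutant testes differed widely from WT. Spermatid markers summed to 6641 to 8033 CPM in WT at P23 against 12.6 to 14.6 in INSL3-KO and 34.8 to 391 in INSL3-KI, and to 4889 to 5640 in WT at P40 against 10.3 to 29.6 in INSL3-KI. All 6 spermatid genes were lower in INSL3-KI at P40. The Sertoli sum was 706 to 725 CPM in WT at P23 against 5610 to 5750 in INSL3-KO and 1196 to 3391 in INSL3-KI, and 635 to 763 at P40 against 3218 to 5060. All 10 Sertoli genes were higher in INSL3-KO at P23 and in INSL3-KI at P40. Leydig markers summed to 534 to 555 CPM in WT at P23 against 2139 to 2206 in INSL3-KO and 337 to 653 in INSL3-KI, and to 654 to 795 at P40 against 1594 to 2115 in INSL3-KI. Sums of other lists moved as well. In INSL3-KO at P23, macrophage markers summed to 435 to 478 CPM against 48.3 to 51.3 in WT. Fibroblast markers summed to 2140 to 2174 against 225 to 239, spermatogonia markers to 436 to 460 against 98.4 to 99.6. Spermatocyte markers were lower, at 133 to 136 against 899 to 975. In INSL3-KI at P40 macrophage markers summed to 237 to 377 against 40.0 to 66.0, and fibroblast markers to 1069 to 1876 against 174 to 413. The part of the missing spermatids in the higher levels of the 8 genes was not tested as such.

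**Figure D3:**
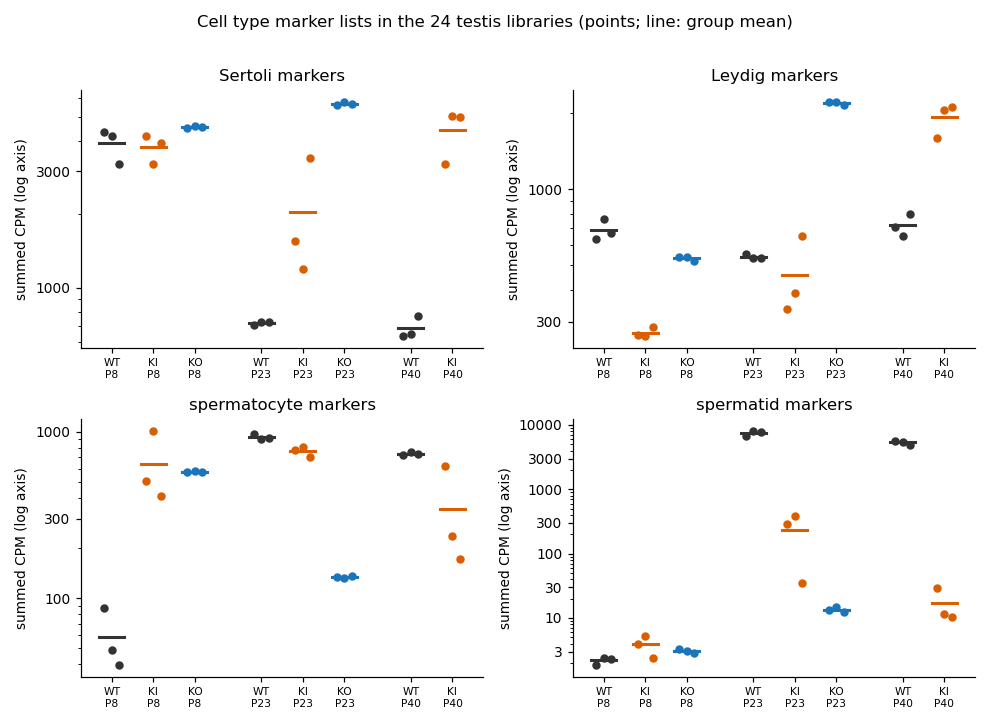
Summed CPM (log axis) of the Sertoli, Leydig, spermatocyte and spermatid marker lists in each testis library, by age and genotype. Spermatid markers lie between 4889 and 8033 CPM in WT at P23 and P40 and at or below 391 in every mutant library.

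Because the Sertoli sum moved with the 8 genes, the folds were also computed with each library scaled on the geometric mean of the 10 Sertoli markers, which reads each gene against those markers. The median of all genes then lay at -2.14 at P40, at -2.47 for INSL3-KO and -0.85 for INSL3-KI at P23, and at -0.23 for INSL3-KI and -0.52 for the libraries labelled INSL3-KO at P8. Across tables the scale and the sums are also touched by the gene models, since the length implied by the second table was 0.575 of that implied by the first for Dhh, 0.849 for Ctsl and 1.19 for Wt1. On that scale Amh alone was called higher at the later ages, at 1.25 (SE 0.14) in INSL3-KI at P40, 1.12 (SE 0.13) in INSL3-KO at P23 and 2.14 (SE 0.22) in INSL3-KI at P23. Between the mutants at P23, Amh was also 2.03-fold higher in INSL3-KI (log2 fold 1.02, adjusted p = 0.0032), the reverse of its estimate with TMM. Fshr in INSL3-KO at P23 was at 0.92 (adjusted p = 8.5e-05), under 2-fold, and Inhba in INSL3-KI at P40 at 0.98 (adjusted p = 0.036). Amhr2 turned to -0.97 in INSL3-KO at P23 (adjusted p = 4.4e-08, under 2-fold), -0.41 in INSL3-KI at P23 (adjusted p = 0.36) and -0.75 at P40 (adjusted p = 0.032). Inha, Inhbb, Kitl and Gdnf lay between -0.27 and 0.46 in those 3 comparisons with none called. At P8 the scale gave larger decreases: -2.41 for Amh, -2.62 for Inhba, -1.51 for Gdnf and -1.09 for Inhbb in INSL3-KI, 4 of 8 genes, and -2.58, -1.97 and -1.24 for Amh, Gdnf and Inhbb in the libraries labelled INSL3-KO, 3 of 7. The share of all genes called on this scale is not given here, and the median gene lay below 0 in each comparison with WT. Counts of calls on this scale are therefore not read as a result about the 8 genes. In the difference between the INSL3-KI effects, Amhr2 was at -1.52 (adjusted p = 0.00036) and Inhbb, at 0.90, was no longer called.

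Raw reads of each gene were also set against the summed reads of the Sertoli markers, which is not the geometric mean used above. For each 1000 reads of Sertoli markers, WT testis held 180 ± 43 Amh reads at P8, 3.85 ± 0.61 at P23 and 6.07 ± 0.65 at P40 (SD, n = 3). INSL3-KI held 43.7 ± 9.8, 18.8 ± 0.89 and 16.6 ± 1.4, and libraries labelled INSL3-KO 38.7 ± 0.53 at P8 and 9.53 ± 0.41 at P23. The 3 INSL3-KI libraries at P23, which ranged from 13.3 to 34.7 in FPKM, lay between 17.7 and 19.3 on this measure. Gdnf stood at 7.80 ± 1.1 reads in WT at P8 against 3.53 ± 0.40 in INSL3-KI and 2.55 ± 0.18 in those labelled INSL3-KO, and between 1.00 and 2.39 in every library of the later ages. Inha in WT stood at 175 ± 24 reads at P8, 153 ± 1.4 at P23 and 166 ± 12 at P40, with P8 overlapping both later ages. Amhr2 in WT rose from 52.3 ± 6.2 to 283 ± 7.2 and 327 ± 34. From P8 to P40 WT Inhba went from 15.1 to 0.532, Inhbb from 96.8 to 49.3, Kitl from 66.6 to 31.2 and Fshr from 9.95 to 6.83. At P40 INSL3-KI lay above WT without overlap for Inha (221 against 166), Inhba (1.21 against 0.532), Fshr (9.99 against 6.83) and Kitl (46.5 against 31.2). Amhr2 lay below WT (223 against 327), and Inhbb (49.6 against 49.3) and Gdnf (2.12 against 1.93) overlapped it. At P23 INSL3-KO lay above WT without overlap for Inha (203 against 153), Fshr (8.97 against 4.14) and Kitl (50.9 against 32.4). There Amhr2 lay below (165 against 283), and Inhbb and Gdnf overlapped. No test was run with this measure. The Sertoli genes were not a fixed yardstick, since Gata4 made up 17.1% of the list's reads in WT at P8 and 5.63% in INSL3-KI, and Cldn11, a tight junction gene, 3.06% and 11.2%. Ctsl made up 28.6% in WT at P8, 48.9% at P23 and 40.2% at P40. Its share was 32.5% in INSL3-KO at P23, and 31.4% and 28.0% in INSL3-KI at P23 and P40. The gene models named above also touch this measure for WT at P23 and for INSL3-KO.

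**Figure D4:**
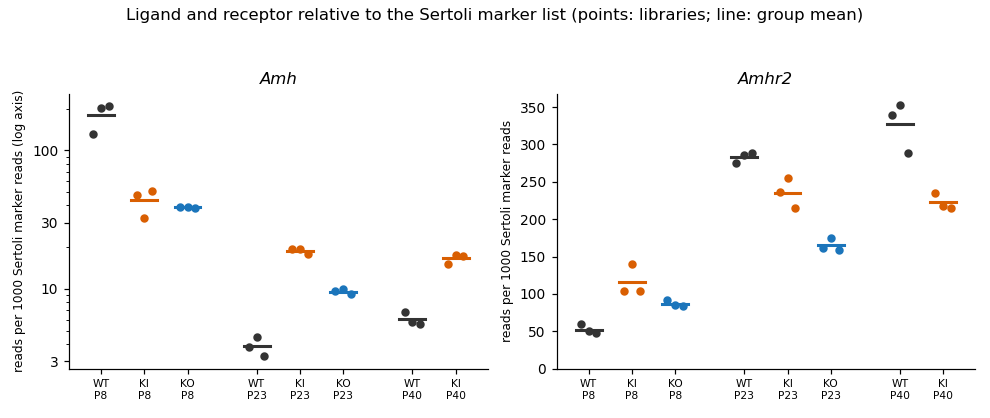
Reads of Amh (log axis) and of Amhr2 (linear axis) per 1000 reads of the 10 Sertoli markers in each testis library. Amh falls from 130 to 208 in WT at P8 to between 3.26 and 6.81 later, while the mutants lie between 32.7 and 51.1 at P8 and between 9.10 and 19.3 later.

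Ratios of FPKM within a library, which no scaling changes, showed how the ligand, receptor and subunit genes stood to each other. At P8 Amh to Amhr2 was 4.11 ± 1.4 in WT, against 0.457 ± 0.16 for INSL3-KI and 0.513 ± 0.019 for libraries labelled INSL3-KO. At P23 WT stood at 0.0157 ± 0.0025, INSL3-KI at 0.0926 ± 0.0047 and INSL3-KO at 0.0671 ± 0.0013, and at P40 WT stood at 0.0215 ± 0.0022 and INSL3-KI at 0.0867 ± 0.011 (SD, n = 3 each). WT was thus the highest group at P8 and the lowest later, without overlap with a mutant group at any age. Inha to Inhbb at P8 was 5.22 ± 0.42 for WT, 6.41 ± 1.8 for INSL3-KI and 7.21 ± 0.34 for libraries labelled INSL3-KO. At P23 WT had 11.7 ± 0.39, INSL3-KI 10.5 ± 0.64 and INSL3-KO 16.3 ± 0.97, and at P40 WT had 9.71 ± 0.73 and INSL3-KI 12.9 ± 0.81. Inhbb to Inhba in the libraries of the first table was 9.99 ± 2.8 in WT and 28.7 ± 5.4 in INSL3-KI at P8. Kitl to Gdnf was 5.82 ± 0.45 in WT at P8, 9.36 ± 0.70 in INSL3-KI and 13.8 ± 1.6 in libraries labelled INSL3-KO. The INSL3-KO and WT P23 values come from the other table than the rest. No test was run on these ratios, and levels of different genes are compared here per length only.

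Ordered by mean FPKM over the 8 testis groups, set side by side across tables, Amh ran from WT P8 (402 ± 80) through the libraries labelled INSL3-KO P8 (100.4 ± 1.5) and INSL3-KI P8 (97.4 ± 32), which overlapped, to INSL3-KI P40 (43.2 ± 13), INSL3-KO P23 (30.7 ± 1.6) and INSL3-KI P23 (21.7 ± 11), whose neighbours also overlapped, and then to WT P40 and WT P23. Inhbb kept the same order of groups. Amhr2 ran from INSL3-KI P40 (490 ± 97) and INSL3-KO P23 (458 ± 29), which overlapped, to the 3 WT groups at the bottom (99.1 to 111), which also overlapped. For Inha, Fshr and Kitl INSL3-KO P23 was the highest group, at 738 ± 26, 23.1 ± 1.3 and 48.4 ± 1.3, and overlapped the next. The 2 later WT groups were the lowest for 7 genes, and for Amhr2 the 3 WT groups were.

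The change with age was also fitted within each mutant, though its difference from WT was tested only for INSL3-KI between P8 and P40. In testis libraries labelled INSL3-KO from P8 to P23, within 1 table, Amh fell 2.69-fold (log2 fold -1.42, SE 0.05, adjusted p = 2.6e-11), 1 of 8 genes lower beside 11.7% of all genes. Amhr2 (1.52, SE 0.04), Inha (1.23, SE 0.03) and Fshr (1.02, SE 0.07) rose, 3 of 8 beside 12.0% of all genes. Fshr, close to the 2-fold limit, was not called without INSL3-KO P8 replicate 2 or INSL3-KO P23 replicate 3 (lowest log2 fold 0.99), nor were Inha and Fshr with scaling by total reads. Kitl (0.45) and Gdnf (-0.58) passed the p but not the fold. Inhbb was fitted at 0.06 with TMM and at -0.20 by total reads, so no direction is given. Inhba stood at 76, 39 and 47 reads at P8 and at 2, 24 and 32 at P23 (adjusted p = 0.091).

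In INSL3-KI testis from P8 to P23 no gene of the 8 was called, where 9.23% of all genes were. Amh was at -1.84 (SE 0.37, adjusted p = 0.013), Inhba at -1.68 (adjusted p = 0.027), Gdnf at -1.68 (adjusted p = 0.030) and Kitl at -0.83 (adjusted p = 0.15). Across all genes 9144 had an unadjusted p below 0.05 in edgeR, and DESeq2 called 4790 genes, Amh, Inhba and Gdnf among them. Without INSL3-KI P23 replicate 3, Amh (-2.10), Inhba (-2.06), Kitl (-1.29) and Gdnf (-2.21) were called, beside 4535 of all genes. Without INSL3-KI P8 replicate 2, Amh was (-2.07), beside 2813 of all genes. When any other library was left out, 0 of all genes were called. From P23 to P40 the 8 estimates lay between 0.60 and 1.31 with adjusted p of 0.099 to 0.23. There 0% of all genes were called by edgeR, although 7615 had an unadjusted p below 0.05 and DESeq2 called 1145, none of the 8 among them.

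Of the genes known to act on Amh transcription, 1 of 9 was called at P8 in INSL3-KI, namely Gata4 (log2 fold -1.76, SE 0.20, adjusted p = 0.0041), with a list median of -0.20 against 0.00 for all genes tested. At P40 all 9 were higher, with a list median of 1.89 against 0.09 for all genes, led by Sox9 (2.80), which directs Sertoli fate, and Nr2f2 (2.43). In INSL3-KO at P23 all 9 were also higher (list median 2.09 against 0.06), again led by Sox9 (2.998) and Nr2f2 (2.72). Sox9, Wt1 and Gata4 are in the Sertoli marker list too. In libraries labelled INSL3-KO at P8, across tables, Gata4 (-1.51) and Nr5a1 (-1.03) were lower.

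The counts of these lists and of those that follow are to be read against all genes tested. At P40 25.6% of them were higher and 3690 of 16677 lower, and in INSL3-KO at P23 31.1% were higher and 5584 of 16732 lower. Among 17 tested genes of the receptors, mediators and antagonists of activin, inhibin and AMH, 1 was lower in INSL3-KI at P8, Smad7 (-1.68, adjusted p = 0.0046), an inhibitory SMAD. At P40 8 were higher and 1 lower (list median 1.17 against 0.09), with Fst (2.42), which binds and blocks activin, and Smad3 (2.29), which carries the activin signal, the most increased and Smad9 (-1.17) decreased. In INSL3-KO at P23 10 were higher and 2 lower (list median 1.54 against 0.06), led by Fst (3.59) and the type I receptor gene Acvr1 (2.91), with Smad9 (-1.76) and Smad1 (-1.005) lower.

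Of the 15 genes downstream of the FSH receptor through cAMP, only Prkar2b, a regulatory subunit of protein kinase A, was called in INSL3-KI at P8 (-1.39, adjusted p = 0.0026). At P40 6 were higher and 4 lower (list median 0.62 against 0.09). Pde4d (2.98) and Prkar2b (2.77) were the most increased, and Pde4a (-4.27) and Prkar2a (-3.30) the most decreased. In INSL3-KO at P23 6 were higher and 5 lower (list median 0.33 against 0.06), Prkar2b (3.09) and Pde4d (2.99) being the most increased. Pde4a (-5.10) and Crem (-4.56) were the most decreased, the latter known as a regulator of gene expression in spermatids.

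The genes of the KIT response and of the GDNF response had none called of 10 and 11 tested in INSL3-KI at P8, with list medians of -0.11 and -0.95. At P40 6 genes of the KIT list were higher, among them Pik3r1 (1.84) and Grb2 (1.76), and Pik3cd (-3.00) was lower, with a list median of 1.12 against 0.09 for all genes. Of the GDNF list 4 of 11 were higher and none lower (list median 1.04), with Ret (2.41), the GDNF signalling receptor, and Mycn (2.33) first. In INSL3-KO at P23 the KIT list had 6 higher and 1 lower (list median 1.24 against 0.06), with Pik3r1 at 2.36, Grb2 at 1.97 and Pik3cd at -2.86, and the GDNF list 5 higher and 3 lower (list median 1.21), with Ret at 3.17, Mycn at 2.35, Lhx1 at -1.84 and Id4 at -1.19.

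Of 13 other niche factors, 3 were lower in INSL3-KI at P8, including Nrg1 (-2.01), a neuregulin growth factor, and Cxcl12 (-1.53), the chemokine that acts through CXCR4 (list median -0.37 against 0.00). At P40 9 were higher and 1 lower (list median 1.90 against 0.09), with Nrg1 (3.13) and Csf1 (2.57) the most increased and the Notch ligand gene Jag1 (-1.73) decreased. In INSL3-KO at P23 10 of 12 tested were higher and Jag1 (-1.99) was lower (list median 1.85 against 0.06), with Aldh1a1 (2.87), an enzyme of retinoic acid synthesis, and Cxcl12 (2.56) first.

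Across tables, the genes of these lists whose implied lengths lay within 10% of each other were also read. In INSL3-KI at P23 against WT, 2 of the 10 KIT genes were higher, Ptpn11 (1.45) and Pik3r1 (1.25), where 8.81% of all genes were. Prkar2b (1.37), Smad3 (1.63) and Mycn (1.57) were higher there too, and Prkar2a (-3.74), Jag1 (-2.11), Lhx1 (-1.95) and Gfra1 (-1.15), the GDNF co-receptor gene, were lower. In libraries labelled INSL3-KO at P8, where 8.37% of all genes were lower, Smad7 (-1.50), Tgfbr3 (-1.01), Arrb1 (-1.27) and Nefm (-1.75) were lower, Cxcr4 (1.20) was higher and none of the 10 KIT genes was called.

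In WT at P8 all 8 genes were higher in testis than in gubernaculum, beside 14.3% of all genes. The log2 difference was 8.70 for Amh, 7.85 for Fshr, 7.09 for Inhbb, 5.98 for Amhr2 and 4.95 for Inha. It was smaller for Inhba (3.43), Kitl (1.96) and Gdnf (1.63). WT gubernaculum held 27, 100 and 7 reads of Amh and 9, 4 and 0 of Fshr, so those differences rest on few reads. Kitl stood at 7.41, 9.35 and 8.41 FPKM there and Gdnf at 1.84, 2.07 and 1.73.

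In INSL3-KI gubernaculum at P8 none of the 7 genes tested was called, where 24.1% of all genes were. Inhbb was at 1.31 (adjusted p = 0.019), with 1.53, 1.55 and 1.21 FPKM against 0.238, 0.691 and 0.435, and Amhr2 at -1.63 (adjusted p = 0.021), with 24 to 34 reads against 47 to 138. DESeq2 called both of these, among 4056 genes, and 9336 genes had an unadjusted p below 0.05 in edgeR. Without WT replicate 2 Inhbb was called by edgeR. INSL3-KO gubernaculum at P8, across tables, had Inhbb higher (log2 fold 2.11, SE 0.37, adjusted p = 0.0019), 1 of the 6 tested beside 15.5% of all genes, at 2.64, 1.89 and 2.12 FPKM. It had Gdnf lower (-1.35, SE 0.23, adjusted p = 0.0017), 1 of 6 beside 15.2%, at 0.618, 1.09 and 0.863 FPKM. Kitl, at 13.5, 13.6 and 15.3 FPKM, was 1.52-fold higher (adjusted p = 0.0019), under 2-fold.

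At P23 no gene of the 7 tested differed between gubernaculum libraries labelled INSL3-KI and WT by the test, where 2.57% of all genes did. There 5063 genes had an unadjusted p below 0.05 and DESeq2 called 2213, none of the 8 among them. Gdnf stood at 1.05, 0 and 2.54 FPKM in INSL3-KI against 7.43, 6.27 and 4.65 in WT (adjusted p = 0.24), the library at 0 being replicate 2, and Inha at 4.51, 4.55 and 5.41 against 12.6, 6.34 and 7.21 (adjusted p = 0.090). Fshr had no read in any gubernaculum library of either genotype at P23. Skeletal muscle markers, which mark the cremaster, summed to 22430 to 22630 CPM in WT gubernaculum at P8, 822 to 1454 in INSL3-KI and 5732 to 6202 in INSL3-KO, and at P23 to 43060 to 66330 in WT and 12.7 to 929 in INSL3-KI, whose replicate 2 was the lowest and also held 1627 CPM of smooth muscle markers against 13500 and 13780 in the others. The Sertoli list summed to 359 to 390 CPM in WT at P8 and 681 to 2400 in INSL3-KO, where Trf made up 59.6% of its reads. The part of these shifts in the gubernaculum values was not tested.

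Over the 15 testis libraries of the first table, the genes whose log2 CPM ran closest to each member were compared among 12334 genes. Amh was nearest to Rps3 (Pearson r = 0.996), Hnrnpa1 and Rpl3, genes of ribosomes and RNA binding. Amhr2 was nearest to Susd3 (0.989), Slc26a2 and Bend6, Inha to Sdsl (0.993), Ifngr1 and Dynlt3, and Inhba to Paics (0.995), Gpx7 and Serpinh1. Inhbb was nearest to Rhox8 (0.997), a homeobox gene in the Sertoli marker list, AU015836 and Obsl1, and Fshr to Casp6, Clic1 and Eps8. Kitl was nearest to Ywhah (0.998), Gstm6 and Adgrg1, and Gdnf to Cbfb (0.994), Ssbp4 and Bcar1. No member was among the 3 nearest genes of another. The libraries share 5 groups, so these values describe a common pattern over age and genotype and carry no test.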

How the data were processed

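Bulk RNA-seq had been run on testis and gubernaculum of WT, INSL3-KI and INSL3-KO mice, with 3 biological replicates per group per the labels. The authors extracted RNA with TRIzol, prepared mRNA libraries and sequenced them as paired reads. Per the submitters' processing notes the reads were aligned with HISAT2 to GRCm38. The counting program, its strand setting and the annotation are not given in the sources used here. The authors deposited read counts per gene in 2 tables of 27 and 12 libraries, and FPKM per gene in matching tables. Their own DESeq2 comparisons were not used.

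Columns were matched to samples by the library names in the labels, with 0 columns left unmapped. The tables were joined on Ensembl identifier, and 94.2 to 97.9% of the reads of each library fell in the 21561 shared genes. Counts were tested with edgeR 4.0.16 (R 4.3.3; quasi-likelihood F test, TMM scaling, low counts removed with filterByExpr at a minimum count of 10), fitted on the compared groups only, with p-values adjusted by Benjamini-Hochberg over every tested gene. Calls needed an adjusted p below 0.01 and a change of at least 2-fold. The SE is the log2 fold divided by the square root of F. All p-values are two-sided. Alternatives were DESeq2 1.42.0, limma 3.58.1 on log2(FPKM + 1), scaling by library size or on 10 Sertoli markers, no filter, all groups of a tissue in 1 fit, a replicate block, and each library left out. The edgeR script was tested on simulated data. At over 33000204 counted reads per testis library, counting error weighs most on Inhba, which had 0 to 32 reads in the P23 WT and INSL3-KO and P40 WT libraries, and on Gdnf, which had 28 to 65 in the WT libraries of P23 and P40.

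The members and the pathway and marker lists were chosen with earlier results of these data known. All 8 members are named, with up to 2 called genes per direction of each pathway list in each comparison with WT, and for each member the 3 genes with the highest correlation of log2 CPM among genes with a mean of at least 5 CPM. Pathway genes whose implied length differed by over 10% between the tables were not named across tables, a further called gene is not reported here, and the choices on implied length and on Inhba were made after seeing the data. Loci come from a GENCODE annotation of GRCm38 and promoters from RefSeq on GRCm38.p6.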

Additional observations from a re-analysis of the deposited data

Results flagged for a closer look

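The effect of INSL3-KI on 7 of the 8 genes differed between P40 and P8 testis, tested as an interaction in 1 edgeR fit (adjusted p below 0.01 and at least 2-fold). The difference, P40 minus P8 on the log2 scale, was 5.62 for Amh, 5.48 for Inhba, 3.43 for Gdnf, 3.20 for Kitl, 3.11 for Fshr, 3.01 for Inha and 2.86 for Inhbb. At P8 every INSL3-KI library lay below every WT library for these 7 genes, and at P40 above. With scaling on Sertoli markers the difference was 3.66 for Amh, 3.59 for Inhba, 1.44 for Gdnf, 1.23 for Kitl, 1.13 for Fshr, 1.05 for Inha and 0.90 for Inhbb, the last below 2-fold.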

How the results depend on the processing

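Over 807 values of single genes under other settings 720 kept their direction and their side of the threshold, and over 804 with a library left out 746 did. The cause of the changes below was not tested. The number of the 8 genes called changed as follows. For INSL3-KI against WT at P8 it was 3, and 0 to 3 without a library. By library size and by limma it was also 3, with Amhr2 in place of Gdnf. For INSL3-KI against WT at P23 it was 2, with 5 by DESeq2, 4 by library size, 6 with all groups in 1 fit, 1 on the Sertoli scale, and 0 to 4 without a library. For INSL3-KO against WT at P23 and INSL3-KI against WT at P40 it was 1 on the Sertoli scale, and at P40 limma left out Inhba, with 7 called. For INSL3-KI against INSL3-KO at P23 it was 2, with 0 by library size, 1 on the Sertoli scale and 0 to 6 without a library. For P23 against P8 it was 0 in INSL3-KI, with 3 by DESeq2, 2 in 1 fit, 1 by limma and 0 to 4 without a library, and 4 in INSL3-KO, with 2 by library size or limma. It was 3 in 1 fit for P40 against P23 in INSL3-KI. In the gubernaculum it was 2 by DESeq2, 1 by library size and 0 to 1 without a library for INSL3-KI at P8, 1 in 1 fit or by limma for INSL3-KO at P8, and 1 in 1 fit for INSL3-KI at P23. The counts over all genes moved too. For INSL3-KI against WT at P23, 1966 genes were lower and 1462 higher. There DESeq2 gave 3045 and 2089, library size 1450 and 3607, and 1 fit 2210 and 2362. INSL3-KI against INSL3-KO at P23 had 2131 and 4131, with 2290 and 3659 by library size. From P8 to P23 INSL3-KO had 1844 and 1887, with 2651 and 1396 by library size and 1477 and 844 by limma.

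Replicate numbers did not pair the samples, as in no comparison were all 3 correlations of same-numbered deviations over 0.1. With a replicate block the members called were 0 for INSL3-KI against WT at P8, where 6 genes of all were called, 1 at P23 and 1 for P23 against P8 in INSL3-KI.

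The estimates that changed sign on the Sertoli scale were, in log2, Amh 0.16, Inhbb 0.14 and Fshr 0.13 for INSL3-KI against INSL3-KO at P8, Amhr2 -0.41 for INSL3-KI against WT at P23, Amhr2 -0.97, Inhbb -0.25 and Gdnf -0.27 for INSL3-KO against WT at P23, and Amh 1.02, Amhr2 0.56, Inha 0.090, Inhbb 0.72 and Gdnf 0.53 for INSL3-KI against INSL3-KO at P23. At P40 they were Amhr2 -0.75, Inhbb -0.20 and Gdnf -0.075, and in the difference between the effects at P40 and P8 Amhr2 -1.52. By library size Kitl was 0.0088 in INSL3-KO at P8, Inha -0.16 for P23 against P8 in INSL3-KI and Inhbb -0.20 in INSL3-KO, and in the gubernaculum Inha was 0.13 and Inhba 0.17 in INSL3-KI at P8 and Inhba 0.16 at P23. By limma Amhr2 was -0.026 for P23 against P8 in WT, Inha -0.31 in INSL3-KI and Inhbb -0.23 in INSL3-KO, with Inha 0.14 and Inhba 0.077 in the INSL3-KI gubernaculum at P8. Without a library, Amh ranged from -0.24 to 0.13 and Inhbb from -0.22 to 0.022 for INSL3-KI against INSL3-KO at P8, positive without INSL3-KI replicate 2, and Inha from -0.16 to 0.35 for P23 against P8 in INSL3-KI, negative without P23 replicate 3. In the gubernaculum at P8 Inhba ranged from -0.34 to 0.14 and Gdnf from -0.22 to 0.58 in INSL3-KI, changing sign without WT replicate 2 and INSL3-KI replicate 2. In INSL3-KO there Amh ranged from -1.33 to 0.51, positive without WT replicate 2, and Amhr2 from -0.21 to 0.60, negative without WT replicate 2 or 3 or INSL3-KO replicate 3. At P23 Inhba ranged from -1.85 to 0.44, positive without WT replicate 1 or INSL3-KI replicate 1 or 3. None of these but Amh at 1.02 and Amhr2 at -1.52 passed both limits.

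Counts over all genes moved by over 1.5 times too. INSL3-KI against WT had 511 genes lower and 476 higher at P8, with 1127 and 1013 by DESeq2. For P23 against P8 in INSL3-KI there were 580 and 935, with 1449 and 3341 by DESeq2 and 1490 and 3810 in 1 fit. In 1 fit, P40 against P23 in INSL3-KI had 2442 and 892, and the P23 gubernaculum, at 355 and 32, had 1467 and 1013. Scaling by library size raised the share of higher calls in mutant testis, for instance from 3690 lower and 4264 higher to 2458 and 6583 at P40, and from 1966 and 1462 to 1450 and 3607 for INSL3-KI at P23. Depth limited Inhba, Gdnf in WT testis at P23 and P40, and the gubernaculum values of Amh, Amhr2, Fshr and Gdnf.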
